A study of Mus with 7 samples.

Results

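The genes described here encode 9 enzymes of the mevalonate pathway, from the first condensation of acetyl-CoA to squalene, in cultured mouse macrophages. They were chosen by symbol (Acat2, Hmgcs1, Mvk, Pmvk, Mvd, Idi1, Fdps, Ggps1 and Fdft1), and all 9 were found among the 31053 genes listed in the count files, 18261 of which had at least 1 count in a retained cell. The cells were FLMs, self-renewing macrophages grown from fetal liver of wild-type C57BL/6J mice in medium with 30 ng/mL GM-CSF, and every library came from such cultures, passaged as a monolayer. How many livers went into a library is not given in the sources used here. Con cells were taken from 10% FBS before any treatment. All other cells spent 24 h in 0.25% FBS with 8.3 µM BSA, either alone (Veh) or carrying 25 µM of the omega-3 fatty acid DHA (DHA). They were then collected at once (Veh.LPS.0 and DHA.LPS.0) or after 1 or 4 h in medium with 20 ng/mL LPS, a ligand of TLR4, which replaced the DHA or BSA medium (Veh.LPS.1, DHA.LPS.1, Veh.LPS.4 and DHA.LPS.4). Con therefore differs from Veh.LPS.0 in serum, added BSA and time in culture together, and these cannot be told apart.

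The mevalonate pathway builds isoprenoids from acetyl-CoA in the cytosol, the endoplasmic reticulum and peroxisomes. Its product farnesyl diphosphate stands at a branch point, since it can be joined head to head into squalene for cholesterol, extended to geranylgeranyl diphosphate for the lipid anchors of small GTPases, or used for dolichol and ubiquinone. Many of its genes are targets of SREBP2, a transcription factor that is held in the endoplasmic reticulum by INSIG proteins while sterols are plentiful and is released when they fall. Macrophages both make cholesterol and take it up from lipoproteins, and the pathway is best known in them for its links to lipid loading and to the interferon response.

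Each of the 7 conditions had 1 droplet library (10x 3′ chemistry), so nothing that differs between conditions was checked in replicates and no p-value is given. Values are unique molecular identifiers (UMIs), each of which marks 1 captured RNA molecule, summed over the cells of a library and given per 1000000 UMIs of that library (CPM). Their 95% intervals are exact binomial intervals that cover counting error only. A UMI count comes from the 3′ end of a transcript and is not divided by length, so levels are compared between libraries and not between genes. Of 31151 barcodes, 11640 had over 20000 UMIs, at least 2000 genes and under 20% mitochondrial UMIs and were kept, 692 to 3073 per library, with median depths of 29369 to 56239 UMIs. Barcodes with 20% or more mitochondrial UMIs made up 29.0% of Con, 35.8% to 54.7% of Veh and at least 74.4% of each of the DHA libraries, so the DHA values rest on fewer cells. The limits kept 698 of 3773, 795 of 4395 and 692 of 5722 DHA barcodes at 0, 1 and 4 h. With Veh they kept 2481 of 4461, 3073 of 5705 and 993 of 2443. The part of this selection in the differences between DHA and Veh was not tested. Of the kept cells, 32 carried a barcode that was also kept in another library, and leaving them out changed no count of members below. The 9 macrophage markers Spi1, Itgam, Fcer1g, Tyrobp, Cd68, Cd14, Csf1r, Adgre1 and Lyz2 summed to 5817 to 7089 CPM with none at 0. Single markers moved within that sum. Csf1r was at 137 CPM in Con and at 36.7 and 31.3 CPM in Veh.LPS.4 and DHA.LPS.4, and Cd14 at 841, 1943 and 1742 CPM. Alb, Ttr and Serpina1a of hepatocytes, Col1a2 of stromal cells and Ly6g of neutrophils had no UMI in any library, and the 6 hepatocyte markers together had 5.48 to 7.71 CPM, nearly all of it Afp. The 5 erythroid markers summed to 0.24 to 0.74 CPM, the 5 stromal ones to at most 0.091 CPM and the 5 neutrophil ones to 0.057 to 6.99 CPM. The last sum was highest in DHA.LPS.4, where all of it was S100a8.

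The first enzymes make HMG-CoA. Acat2 (ENSMUSG00000023832, chr17:12943042-12960725 in GRCm38), the cytosolic thiolase that joins acetyl-CoA into acetoacetyl-CoA, was at 17.1 CPM in Con, at 71.5, 72.2 and 47.7 CPM with Veh after 0, 1 and 4 h of LPS and at 38.6, 36.9 and 18.3 CPM with DHA after those hours. Con and DHA.LPS.4 were lowest with overlapping intervals, and each Veh library lay above every DHA library. Hmgcs1 (ENSMUSG00000093930, chr13:119690351-119708260), the cytosolic HMG-CoA synthase, was at 23.4 CPM in Con, at 112, 412 and 135 CPM with Veh and at 68.0, 153 and 65.9 CPM with DHA. It spanned the widest range of the members, 17.6-fold, with its highest level 1 h after LPS in both media.

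Mevalonate is then phosphorylated, phosphorylated again and decarboxylated to isopentenyl diphosphate. Mvk (ENSMUSG00000041939, chr5:114444264-114460591), mevalonate kinase, was at 21.1 CPM in Con, at 63.4, 59.4 and 28.6 CPM with Veh and at 41.4, 34.1 and 20.2 CPM with DHA. Pmvk (ENSMUSG00000027952, chr3:89454541-89469014), phosphomevalonate kinase, was at 27.2 CPM in Con, at 105, 129.8 and 70.6 CPM with Veh and at 56.3, 49.2 and 25.3 CPM with DHA. Both kinases had their lowest levels in DHA.LPS.4 and Con, which did not differ beyond counting error. Mvd (ENSMUSG00000006517, chr8:122433596-122443422), the decarboxylase, was at 23.8 CPM in Con, at 106, 93.5 and 53.7 CPM with Veh and at 68.3, 54.5 and 30.0 CPM with DHA. For Mvd the order was Con, DHA.LPS.4, Veh.LPS.4 and DHA.LPS.1 from the lowest up, and only the last 2 of these overlapped.

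The isomerase and the prenyltransferases follow. Idi1 (ENSMUSG00000058258, chr13:8885606-8892396), which converts isopentenyl to dimethylallyl diphosphate, was at 48.0 CPM in Con, at 160.4, 276 and 304 CPM with Veh and at 103, 145 and 141 CPM with DHA. It was the only member whose highest level was in Veh.LPS.4 by this scaling. Fdps (ENSMUSG00000059743, chr3:89093588-89101967), farnesyl diphosphate synthase, was at 115 CPM in Con, at 581, 532 and 532 CPM with Veh and at 365, 273 and 196 CPM with DHA, so that by this scaling Veh was nearly flat over the hours while DHA was not. At the branch point, Fdft1 (ENSMUSG00000021273, chr14:63145150-63181687), the squalene synthase that commits farnesyl diphosphate to sterols, was at 12.2 CPM in Con, at 68.8, 75.6 and 57.5 CPM with Veh and at 50.7, 44.6 and 34.1 CPM with DHA, with no overlap between neighbours in its order. Ggps1 (ENSMUSG00000021302, chr13:14049790-14063566), which makes geranylgeranyl diphosphate, was at 19.3 CPM in Con, at 19.0, 22.7 and 20.5 CPM with Veh and at 19.9, 21.9 and 20.0 CPM with DHA. Its 7 levels lay within a 1.19-fold range, and every library overlapped its neighbours in the order. The ends of that order did not overlap, with Veh.LPS.1 over Veh.LPS.0 at 1.19 (1.12 to 1.27). With TMM factors, a scaling that allows for a few abundant genes taking up a library, Ggps1 and Fdps were also highest in Veh.LPS.4, by 0.54 and 0.30 on the log2 scale over Veh.LPS.0.

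**Figure D1:**
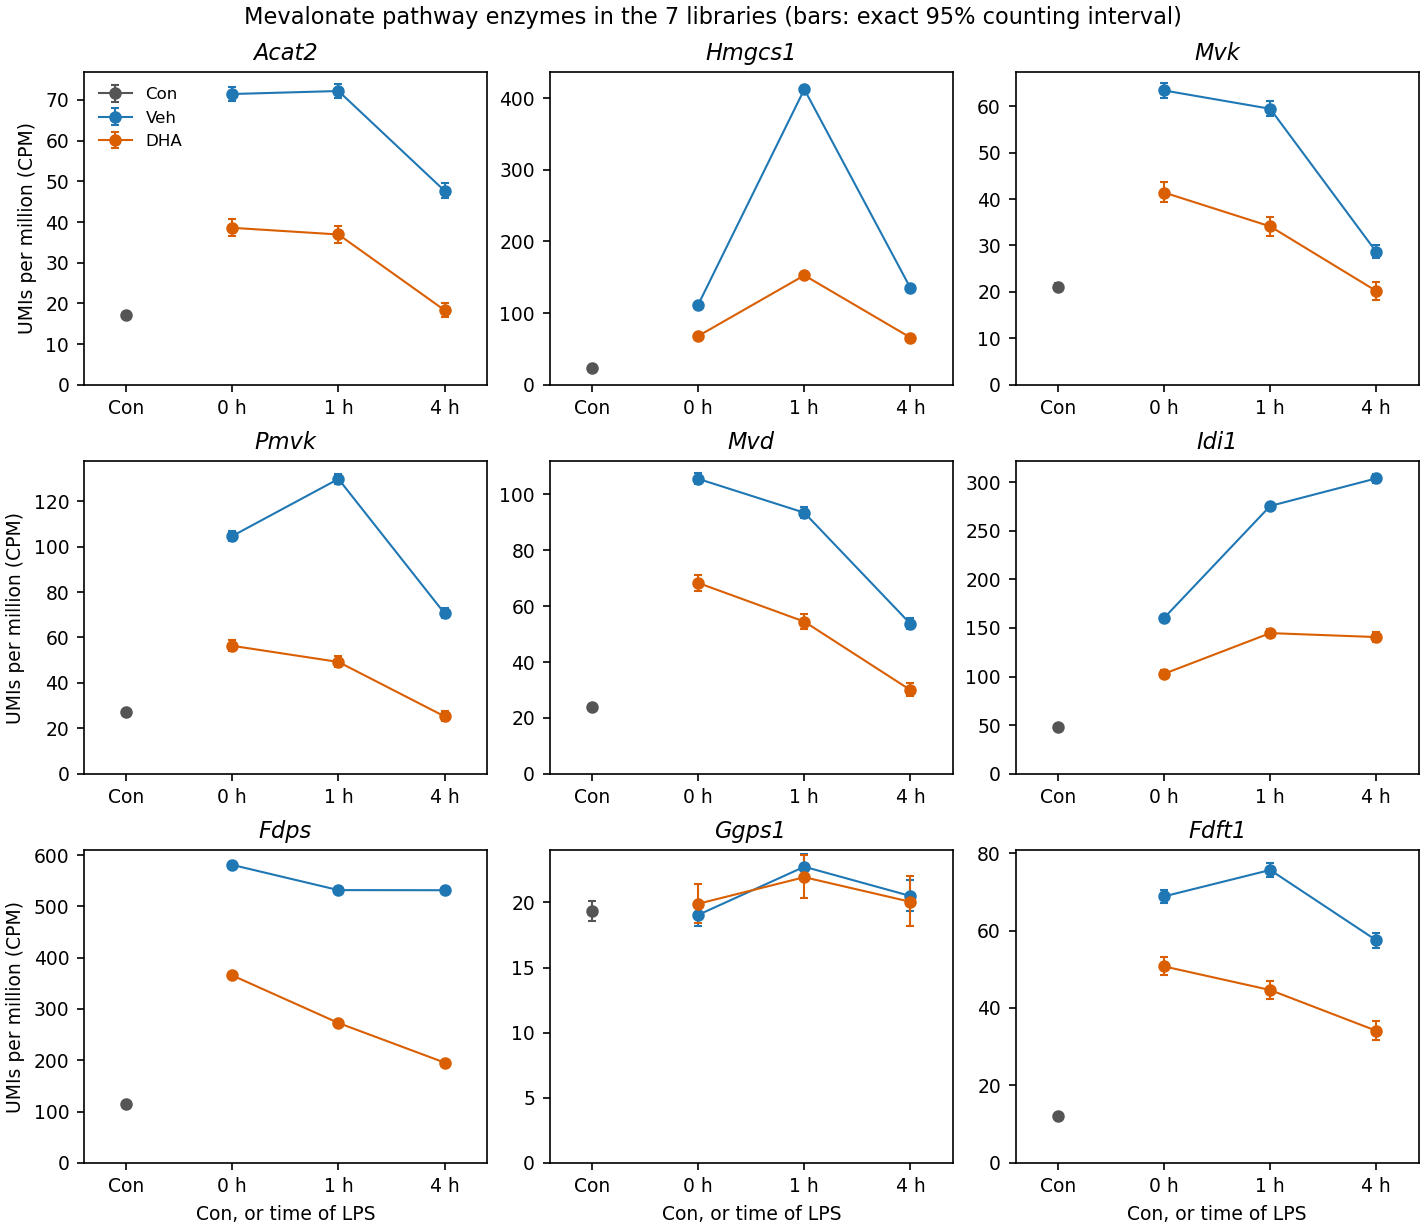
Level of each of the 9 enzymes in UMIs per 1000000 (CPM, y axis from 0, a scale of its own in each panel) in Con and in Veh and DHA libraries at 0, 1 and 4 h of LPS, 1 library per point, with bars for exact 95% counting intervals. Veh lies above DHA at every hour in all panels but that of Ggps1, whose points stay between 19.0 and 22.7 CPM.

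Reduced serum with BSA was compared first. A member was counted as higher or lower when its CPM differed by more than 1.5-fold and a UMI of it was found in 25% or more of cells in either library, a limit on size and not a test. All 9 members met the second condition in every library, the lowest share being 38.3% for Fdft1 in Con. In Veh.LPS.0, 8 of 9 members were higher than in Con, against 9.31% of all 8252 genes with a UMI in 25% of cells. Fdft1 had the largest ratio at 5.65 (95% interval 5.35 to 5.98), followed by Fdps at 5.04 (4.95 to 5.13) and Hmgcs1 at 4.77 (4.58 to 4.97). Mvk had the smallest of the 8, 1.59 (1.52 to 1.65) on the log2 scale. The ratio of Ggps1 was 0.987 (0.928 to 1.05). The median log2 ratio was 2.06 over the members and -0.07 over all genes tested.

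DHA was then compared with Veh at each hour, where each comparison uses a pair of libraries of its own. At 0 h, 7 of 9 members were lower with DHA and the median of their log2 ratios was -0.64, where 0.949% of all 8434 genes tested were lower by as much and the median of all was -0.05. After 1 h of LPS, 8 were lower, with a median of -0.93, against 1.73% of 7794 genes and a median of -0.05. After 4 h, 7 were lower, with a median of -1.04, against 2.42% of 7672 genes and a median of 0.08. No member was higher by more than 1.5-fold at any hour, nor with TMM factors, with which the counts were 7, 8 and 8.

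The members did not share 1 size or time course. Pmvk had DHA/Veh ratios of 0.538 (0.513 to 0.565), 0.379 (0.360 to 0.400) and 0.358 (0.327 to 0.391) at 0, 1 and 4 h, the lowest of the members at 0 and 4 h. Fdps went from 0.629 (0.617 to 0.641) to 0.513 (0.501 to 0.525) and 0.368 (0.356 to 0.380), and Acat2 from 0.540 (0.509 to 0.572) to 0.512 (0.480 to 0.544) and 0.384 (0.345 to 0.427). In contrast, Hmgcs1 had its lowest ratio at 1 h, with 0.608 (0.582 to 0.636), 0.370 (0.359 to 0.382) and 0.488 (0.461 to 0.516). Idi1 had ratios of 0.642, 0.525 and 0.463, and Mvd of 0.647, 0.583 and 0.558. Mvk was at 0.653 and 0.574 and then, outside the size limit, at 0.706 (0.634 to 0.784). With TMM factors this 4 h value, -0.50 on the log2 scale, was -0.63 and past the limit. Fdft1 had the ratio nearest to 1 of the 8 genes other than Ggps1 at 0 h, 0.737 (0.699 to 0.777), and 0.590 and 0.593 later. Thus the mRNA of squalene synthase and that of Ggps1, the enzymes on either side of the branch, stood apart at every hour, since Ggps1 had ratios of 1.04 (0.956 to 1.14), 0.965 (0.884 to 1.05) and 0.978 (0.875 to 1.09).

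**Figure D2:**
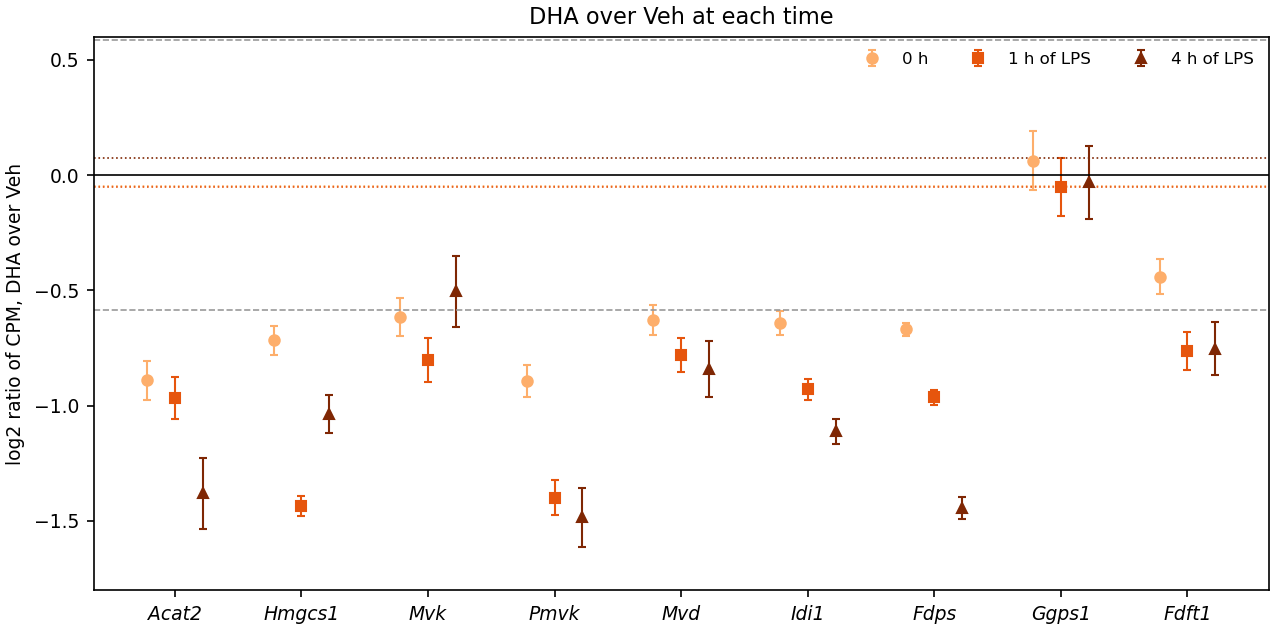
Log2 ratio of CPM, DHA over Veh, for each enzyme (x axis, in pathway order) at 0, 1 and 4 h of LPS, with bars for 95% counting intervals, dashed lines at the 1.5-fold limit and dotted lines at the median of all genes tested. All members but Ggps1 lie below 0 at every hour, and the lowest points, near -1.5, are those of Pmvk, Fdps and Hmgcs1 after LPS.

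The difference between the DHA/Veh ratios of 2 hours rests on 4 libraries and has an interval from counting error only. From 0 to 1 h, the log2 ratio went down most for Hmgcs1, by -0.72 (-0.79 to -0.64), and for Pmvk, by -0.50 (-0.61 to -0.40). The interval of the difference lay below 0 for 7 members and held 0 for Acat2, at -0.08 (-0.20 to 0.05), and for Ggps1, at -0.12 (-0.29 to 0.06). From 0 to 4 h the largest differences were those of Fdps, -0.77 (-0.83 to -0.72), Pmvk, -0.59 (-0.73 to -0.44), and Acat2, -0.49 (-0.66 to -0.32). Mvk, at 0.11 (-0.06 to 0.28), and Ggps1, at -0.09 (-0.30 to 0.11), had intervals that held 0. Because the same 4 values enter, these numbers are also the differences between the LPS ratios in DHA and in Veh. They depend on the scaling. With TMM factors the log2 DHA/Veh ratio of Ggps1 was 0.07 at 0 h and -0.15 at 4 h, and the interval of its difference no longer held 0. That of Mvk was -0.61 and -0.63 with those factors.

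The hours after LPS were then compared within each medium. At 1 h in Veh, Hmgcs1 and Idi1 were higher than at 0 h and no member was lower. Of all 8089 genes tested, 4.15% were higher and 4.24% lower. Hmgcs1 had a 1 h over 0 h ratio of 3.69 (3.61 to 3.77) and Idi1 of 1.72 (1.68 to 1.75), whereas the other 7 members had ratios from 0.885 for Mvd to 1.24 for Pmvk. In DHA, Hmgcs1 alone was higher at 1 h, with a ratio of 2.24 (2.14 to 2.36), against 4.66% of 8474 genes. Idi1 had a ratio of 1.41 (1.35 to 1.47) there, below the limit, and with TMM factors it was past it at 0.60 on the log2 scale. The comparisons with the 0 h library of a medium share that library.

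Levels after 4 h of LPS were compared with those at 0 h, where large parts of all genes also passed the limit. In Veh, Idi1 was higher than at 0 h with a ratio of 1.90 (1.85 to 1.94), and Mvk, at 0.451 (0.427 to 0.476), and Mvd, at 0.508 (0.488 to 0.529), were lower. Acat2, at 0.667 (0.638 to 0.697), and Pmvk, at 0.675 (0.651 to 0.700), lay just inside the limit in Veh. With TMM factors these 2 were at -0.15 and -0.14 on the log2 scale. Of all 8385 genes, 10.2% were higher and 38.3% lower by this scaling, and 21.6% and 21.1% with TMM factors, which moved the median of all genes from -0.36 to 0.07. With TMM factors Mvd, at -0.54 on the log2 scale, no longer passed the limit, Hmgcs1, at 0.70, did, and the values of Fdps and Fdft1 changed sign from -0.13 to 0.30 and from -0.26 to 0.17. The Mvk value was -0.72 and that of Idi1 1.35 with those factors, so the kinase and the isomerase stayed on opposite sides. In DHA, 5 members (Acat2, Mvk, Pmvk, Mvd and Fdps) were lower at 4 h than at 0 h, with ratios from 0.439 for Mvd to 0.535 for Fdps, against 33.6% of 8477 genes (9.64% higher). With TMM factors those 5 remained lower, Idi1 was higher at 0.75 on the log2 scale, and 21.0% of all genes were lower and 18.3% higher.

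The hours from 1 to 4 were compared in the same way. In Veh.LPS.4, 5 members were lower than in Veh.LPS.1 (Acat2, Hmgcs1, Mvk, Pmvk and Mvd), against 29.3% of 8010 genes (7.98% higher), with Hmgcs1 at 0.327 (0.320 to 0.335). With TMM factors only Hmgcs1 and Mvk were past the limit, and 16.2% of all genes were lower and 16.7% higher. The same 5 symbols were lower from DHA.LPS.1 to DHA.LPS.4, against 23.3% of 7847 genes (6.97% higher), and TMM factors left 4 of them, all but Mvk, with 15.7% of all genes lower and 11.3% higher. By this scaling Hmgcs1 had 4 h over 0 h ratios of 1.21 (1.17 to 1.24) in Veh, where TMM factors gave 0.70 on the log2 scale, and of 0.968 (0.906 to 1.03) in DHA. Idi1 had 4 h over 1 h ratios of 1.10 (1.08 to 1.12) in Veh and 0.972 (0.928 to 1.02) in DHA. With TMM factors these Idi1 values were 0.48 and 0.15 on the log2 scale, inside the limit.

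**Figure D3:**
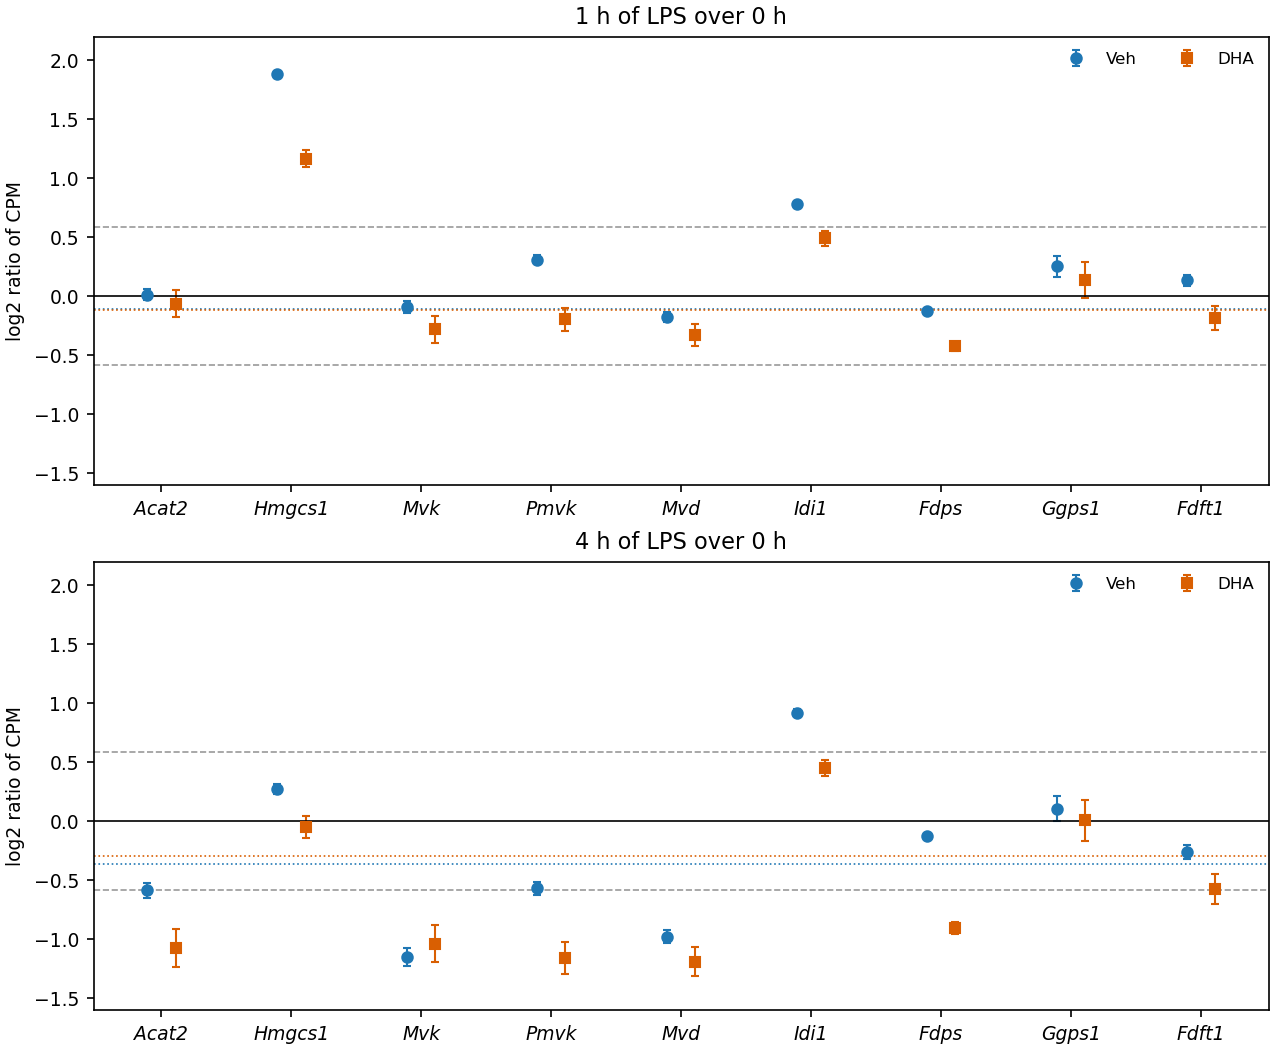
Log2 ratio of CPM for 1 h over 0 h (top) and 4 h over 0 h (bottom) of LPS in Veh and in DHA, per enzyme in pathway order, with bars for 95% counting intervals, dashed lines at the 1.5-fold limit and dotted lines at the median of all genes in that medium. Hmgcs1 stands highest at 1 h, at 1.88 in Veh and 1.17 in DHA, and Idi1 stands highest at 4 h, at 0.92 and 0.45.

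Of related genes, 4 lists were read beside the members by their counts and medians, and the shares of all genes lower with DHA were again 0.949%, 1.73% and 2.42%. Of 11 enzymes that turn squalene into cholesterol, 10 reached 25% of cells, and 4, 8 and 9 of these were lower with DHA at 0, 1 and 4 h, with medians over all 11 of -0.58, -0.84 and -0.77 on the log2 scale. Lss, the cyclase that forms lanosterol, had DHA/Veh ratios of 0.587, 0.446 and 0.408, and Ebp, a sterol isomerase, was nearest to 1 with 0.848, 0.804 and 0.868. In Veh.LPS.0 over Con, 9 were higher, with a median of 1.81, and Ebp had a ratio of 1.00 (0.972 to 1.03). Ebp thus resembled Ggps1 in this comparison and not in that of DHA with Veh.

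Of 16 genes downstream of the isoprenoid diphosphates, among them those of prenylation, dolichol and ubiquinone synthesis, 14 or 15 reached 25% of cells. None was higher or lower with DHA at any hour. Their medians were -0.05, -0.12 and 0.03. The lowest were Pdss1, a subunit of the enzyme that makes the ubiquinone side chain, with 0.822 (0.725 to 0.929) at 0 h, Fntb, the farnesyltransferase beta subunit, with 0.777 (0.638 to 0.941) at 1 h, and Rabggtb, a subunit of the Rab geranylgeranyl transferase, with 0.794 (0.740 to 0.850) at 4 h. In Veh.LPS.0 over Con none was higher, and Pdss1 was lower with a ratio of 0.528 (0.493 to 0.566). No gene of the list was past the limit in the direction of most members in these 4 comparisons. With DHA, 0.949%, 1.73% and 2.42% of all genes were lower and 1.08%, 1.33% and 2.22% higher at 0, 1 and 4 h. None of 14 or 15 genes is near those shares, so it does not set the list apart. In Veh.LPS.0 over Con, 9.31% of all genes were higher and 7.76% lower.

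Of 10 genes of SREBP control and sterol uptake, 9 reached 25% of cells, and 2, 3 and 2 were lower with DHA at 0, 1 and 4 h, with medians of -0.40, -0.41 and -0.24. Insig1, which retains the SREBP complex and is itself an SREBP target, was at 41.4, 224 and 90.1 CPM with Veh after 0, 1 and 4 h of LPS and at 25.5, 88.7 and 39.1 CPM with DHA. Srebf2, which encodes SREBP2, had DHA/Veh ratios of 0.756, 0.754 and 0.845, all inside the limit, and was 2.09-fold (2.02 to 2.17) higher in Veh.LPS.0 than in Con. Of 7 genes of LXR signalling and cholesterol efflux, only 2 to 4 reached 25% of cells, and 2, 0 and 0 were lower with DHA, with medians of -0.62, -0.37 and 0.03 over the 6 with at least 10 UMIs in both libraries.

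An isoenzyme elsewhere in the cell served as a contrast. Acat1, the mitochondrial thiolase, had DHA/Veh ratios of 1.05 (1.02 to 1.07), 0.987 (0.961 to 1.01) and 1.03 (0.986 to 1.07), and 0.946 (0.930 to 0.962) in Veh.LPS.0 over Con. It lay near 1 where Acat2 did not. Acat3, a close relative of Acat2, had at most 13 UMIs in a library. Reads that match near-identical copies of a gene can be dropped or split by the counting, which was not examined for the members.

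The genes nearest to the members in their profile were sought among 8035 others with at least 10 CPM in some library. Likeness was the root mean square distance over the 7 libraries between log2(CPM + 1) profiles centred on each gene, a description with no test. The mean profile of the members was nearest to Nsdhl at 0.12, Lss at 0.13, Sqle at 0.18, Rdh11 at 0.21 and Tuba1a at 0.21. Stard4 followed at 0.25, Gm29340 at 0.27, Ifi27l2a at 0.28, and Fads2 and Aldoc at 0.29. Nsdhl, Lss and Sqle act after squalene, Rdh11 is a retinol dehydrogenase, Stard4 carries sterols, Fads2 is a fatty acid desaturase, Aldoc a glycolytic aldolase and Tuba1a a tubulin.

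Single members had different neighbours. Idi1 lay nearest to Cyp51 (0.11), Hsd17b7 (0.12) and Sc5d (0.14), all enzymes of late sterol synthesis. Hmgcs1 was nearest to Insig1, at the larger distance of 0.30. Mvk was nearest to Slc25a1, the mitochondrial citrate carrier (0.11), and Mvd to Ifi27l2a (0.22). Fdps and Fdft1 were nearest to Nsdhl (0.16 and 0.21), and Acat2 and Pmvk to Lss (0.21 and 0.25). Ggps1, whose profile was nearly flat by CPM, was nearest to 4931406P16Rik, Atxn2l and Cgrrf1 at 0.05 each.

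Single cells were compared after thinning each to 20000 UMIs. The summed UMIs of the 9 members had a median of 6 per cell in Con, of 26, 33 and 23 in Veh at 0, 1 and 4 h, and of 16, 15 and 11 in DHA. The difference between DHA and Veh was not confined to a few cells, and the distributions also differed in shape. At 0 h the 10th percentile was 13 UMIs in Veh and 6 in DHA, and the 90th was 39 and 27. Of DHA cells, 85.7%, 93.5% and 96.1% lay below the median of Veh cells at the same hour, 36.5%, 47.2% and 31.8% lay below the 10th percentile of Veh cells, and at most 0.573% above the 90th. Of Veh.LPS.0 cells, 93.6% lay above the 90th percentile of Con cells. A UMI of Hmgcs1 was found at equal depth in 36.3% of Con cells, in 81.0%, 94.0% and 81.8% of Veh cells and in 66.0%, 79.7% and 63.4% of DHA cells. A Ggps1 UMI was found in 30.2% to 36.1% of the cells of each library. No other cell type was there in which to measure free RNA, so these shares stand without a background.

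**Figure D4:**
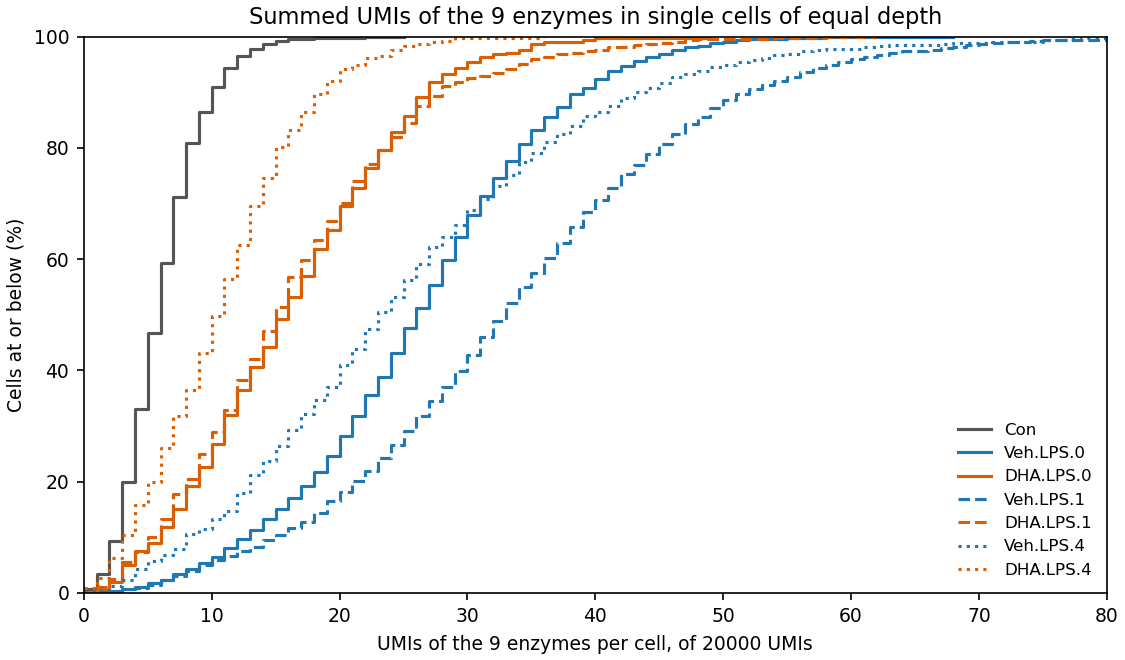
Share of cells (y axis, percent) with at most the number of summed UMIs of the 9 enzymes on the x axis, each cell thinned to 20000 UMIs, 1 curve per library, and the x axis ends at 80 UMIs. Con lies furthest left with a median of 6, the DHA curves lie between it and the Veh curves, and Veh.LPS.1 lies furthest right with a median of 33.

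The spread between cells differed by library, in an order that depended on the measure. The Fano factor, the variance of the summed UMIs over their mean, which is 1 for counting noise alone, was 1.57 for Con, 3.84, 6.37 and 7.96 for the Veh libraries and 4.18, 5.47 and 3.26 for those with DHA. Mean sums ranged from 6.13 UMIs in Con to 33.6 in Veh.LPS.1, and the Fano factor was not corrected for them. The standard deviation was 51% of the mean for Con. For Veh libraries it was 38%, 44% and 56% at 0, 1 and 4 h, and for DHA libraries 51%, 58% and 55%. Among single members the Fano factor was highest for Hmgcs1 in Veh.LPS.1, at 5.36, and Fdps in Veh.LPS.4, at 3.88. Hmgcs1 in DHA.LPS.1 followed at 3.67 and Idi1 in Veh.LPS.4 at 3.49. Ggps1, with means of 0.37 to 0.46 UMIs, stayed between 0.92 and 1.10. Mvk, with means of 0.42 to 1.25 UMIs, lay between 1.04 and 1.15. In Veh.LPS.4, where the Fano factor of the sum was highest, 10% of cells held at least 43 UMIs and 10% at most 8.

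Members were correlated over cells within a library, given as a description, since the cells share a library and each was thinned to the same depth. Over the 28 pairs without Ggps1, the median Pearson r was 0.026 in Con (2908 cells), 0.187, 0.214 and 0.289 in Veh (2481, 3073 and 993 cells) and 0.207, 0.231 and 0.157 in DHA (698, 795 and 692 cells). The highest r were those of Idi1 with Fdps in Veh.LPS.4, at 0.506, and of Hmgcs1 with Idi1 in Veh.LPS.1, at 0.464. For the 8 pairs with Ggps1 the medians ranged from -0.023 to 0.005. Ggps1 had a mean of only 0.37 to 0.46 UMIs per cell at this depth, where counting noise weighs on r. At like means in DHA.LPS.4, pairs without Ggps1 had r from -0.010 to 0.117 for Mvk (0.42 UMIs) and from 0.067 to 0.234 for Acat2 (0.37 UMIs). The mean sum per cell was 6.13 UMIs in Con and 10.9 to 33.6 UMIs elsewhere, and r was not corrected for it. The summed members went with the summed enzymes after squalene at r of 0.277 in Con and 0.590 to 0.772 in the other 6 libraries, and with the summed proliferation genes at 0.036 to 0.312.

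**Figure D5:**
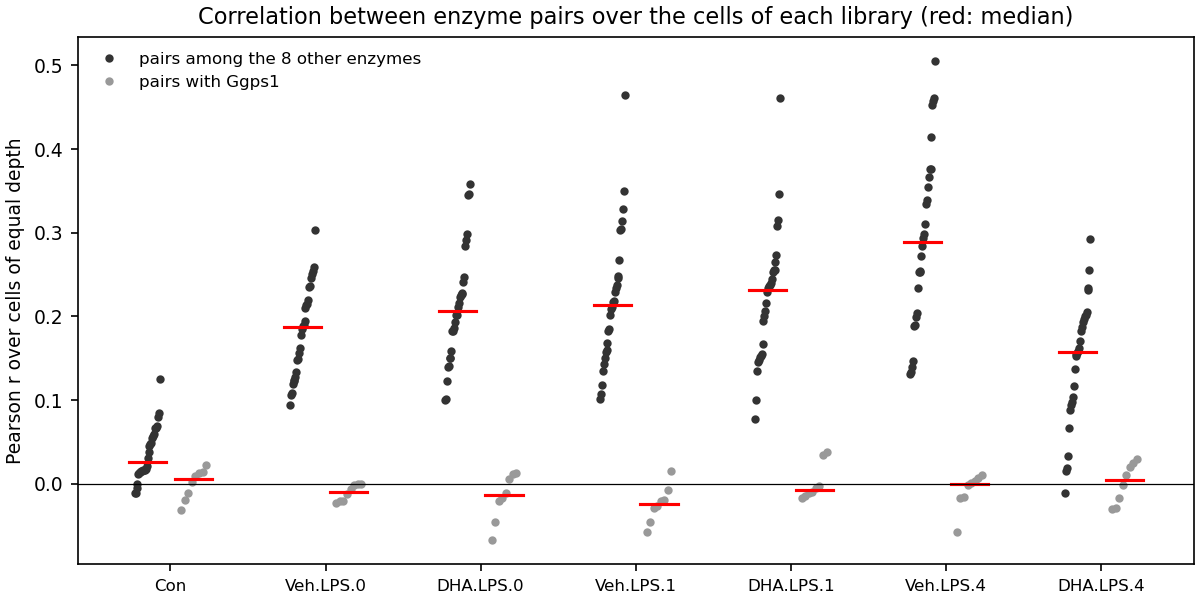
Pearson r over the cells of each library, thinned to equal depth, for the 28 pairs among the enzymes other than Ggps1 (black) and the 8 pairs with Ggps1 (grey), 1 point per pair, with red lines for medians. The black medians lie at 0.026 in Con and at 0.157 or more in the other libraries, and the grey medians stay near 0.

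Proliferation and mitochondrial share moved with the libraries compared. The 8 proliferation genes summed to 2191 CPM in Con, to 1619, 1633 and 389 CPM with Veh and to 1199, 1088 and 613 CPM with DHA, so the sum was lower with DHA at 0 and 1 h and higher at 4 h. Its part in the values of the members was not tested. Among cells with at most 5 UMIs of these genes, 6, 8 and 8 members were lower with DHA at 0, 1 and 4 h, with medians of -0.68, -1.03 and -1.09, where 1.06%, 1.28% and 2.97% of all genes tested in those cells were lower. Among cells with more than 5 such UMIs, 3, 8 and 7 were lower, with medians of -0.54, -0.71 and -0.94, against 0.514%, 0.843% and 2.43% of all genes. Among cells with 5 to 10% mitochondrial UMIs, which were most of each library, 7, 8 and 7 members were lower, with medians of -0.61, -0.83 and -0.96, against 1.00%, 1.18% and 2.54% of all genes. In the 57 DHA and 196 Veh cells with 10 to 15% at 0 h, no member was lower by more than 1.5-fold, against 2.26% of all genes, and the median was -0.30. In the same range 8 members were lower at 1 h (72 DHA and 144 Veh cells), with a median of -0.74, against 4.08% of all genes. At 4 h (48 and 73 cells) 7 were lower there, with a median of -1.17, against 5.68%. Without any filter on barcodes 8 members were lower at each hour, with medians of -0.84, -1.13 and -1.36, against 5.71%, 10.7% and 5.29% of all genes, and there Ggps1 had log2 ratios of -0.24, -0.41 and -0.40.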

How the data were processed

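The authors ran 10x Genomics Cell Ranger (version 3.1.0 per the labels and the file headers, another version in the paper's methods) on build mm10 and deposited, per library, a filtered matrix of raw UMI counts per gene and barcode, without normalization or the later cell filter. The values are whole-number counts, as deposited. Cells were kept with the limits of the study, their UMIs summed per gene and divided by the library's total of 22045775 to 125716982 UMIs to give CPM. Ratios of CPM carry exact binomial 95% intervals. With 1 library per condition no count test was run. Genes were counted by size (over 1.5-fold, with a UMI in 25% or more of cells in either library). For values per cell, each cell was thinned once to 20000 UMIs (random seed 7). No doublet caller was run, and leaving out the top 5% of cells by UMIs was an alternative. TMM factors came from edgeR 4.0.16 and median-of-ratios factors from DESeq2 1.42.0 (R 4.3.3), and other steps from Python 3.11.15, numpy 2.4.6, scipy 1.17.1 and pandas 2.3.3. Intervals were run on simulated counts that held counting error only, the model that the intervals assume. That run cannot show how they hold for the spread between real cells or libraries. Coordinates are those of RefSeq for GRCm38, where 9 of 9 members matched by symbol. Promoter and protein sequences were not used here. Levels in every library and DHA/Veh ratios at every hour are given for all 9 members. In the other comparisons the ratios of only some members are given. From the other lists the genes named are those with the lowest or highest ratio in a comparison, and from the profiles the 10 genes nearest to the mean and the 3 nearest to a member. Insig1, Srebf2, Acat1 and Acat3 were also named for their role after their values were seen, and not every gene that the rule gives is reported here, a list of other pathway steps only for Acat1 and Acat3. The members and lists were chosen with earlier results of these data known, and 12 alternatives were planned and 2 added after the data were seen.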

Additional observations from a re-analysis of the deposited data

Results flagged for a closer look

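Pmvk and Fdft1 stood out because, 1 h after LPS, their levels lay on opposite sides of the 0 h level in Veh and in DHA. Pmvk, phosphomevalonate kinase, went from 105 to 129.8 CPM in Veh, a log2 ratio of 0.31 (0.27 to 0.35), and from 56.3 to 49.2 CPM in DHA, -0.19 (-0.29 to -0.10), a difference of 0.50. Fdft1, squalene synthase, went from 68.8 to 75.6 CPM in Veh, 0.14 (0.09 to 0.18), and from 50.7 to 44.6 CPM in DHA, -0.18 (-0.29 to -0.08), a difference of 0.32. In DHA the median log2 ratio of all genes tested was -0.12, and 35.4% of genes lay below Pmvk and 37.3% below Fdft1. With TMM factors the signs were the same for both, at 0.40 and -0.08 for Pmvk and at 0.22 and -0.07 for Fdft1. The DHA values then no longer differed from no change beyond counting error, so the opposite directions depend on the scaling. None of these values passes the 1.5-fold limit, the intervals cover counting error only, and with 1 library per condition the difference was not tested.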

How the results depend on the processing

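Of 140 recomputed counts of members past the size limit (10 comparisons under 14 alternatives), 127 stayed within 1.5 times the value reported, and no member past the limit changed sign in any of them. The log2 ratios of single members and their medians moved more often. Of these, 789 stayed within the counting interval of the value reported and 311 moved outside it. For a median, that interval was the one of the median member. With a limit of more than 2-fold, the counts were 0 for DHA over Veh at 0 h and 2 at 1 h, 1 for Veh.LPS.1 over Veh.LPS.0, 1 for Veh.LPS.4 over Veh.LPS.0, 2 for Veh.LPS.4 over Veh.LPS.1 and 2 for DHA.LPS.4 over DHA.LPS.1, which follows from the stricter limit. At the 1.5-fold limit with TMM factors and with median-of-ratios factors, 2 members passed for DHA.LPS.1 over DHA.LPS.0 and 2 for Veh.LPS.4 over Veh.LPS.1. Of Veh.LPS.4 over Veh.LPS.0, 5 members passed with all barcodes and 5 with cells thinned to equal depth, in place of 3. Acat2 and Pmvk lay close to the limit as reported, with ratios of 0.667 and 0.675. The cause of the change in count was not tested. Among cells with more than 5 proliferation UMIs, an alternative added after the data were seen, 3 members passed for DHA over Veh at 0 h. Over the alternatives, the median log2 ratio of the members ranged from -0.84 to -0.54 for DHA over Veh at 0 h, from -1.13 to -0.71 at 1 h, from -1.36 to -0.94 at 4 h and from 1.93 to 2.13 for Veh.LPS.0 over Con. That of Veh.LPS.4 over Veh.LPS.0 ranged from -0.35 to 0.19. With 1 library per condition, none was left out, and a fit of DHA over the 3 hours together was not run. Counting depth is lowest in DHA.LPS.4, where Acat2 has 404 and Ggps1 442 UMIs.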

Other observations

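Few cells held under 5% mitochondrial UMIs, 55, 80 and 72 of the DHA libraries and 77, 111 and 64 of the Veh libraries at 0, 1 and 4 h, and in them the DHA values lay furthest from Veh. The median log2 DHA/Veh ratio of the members was -1.35, -2.03 and -2.02 there, with 8 members lower by more than 1.5-fold at each hour, where 19.2%, 20.0% and 13.3% of all genes tested in these cells were lower by as much. At equal depth these DHA cells held means of 9.60, 7.59 and 6.08 member UMIs, against 17.0, 17.8 and 11.6 in DHA cells with 5 to 10% mitochondrial UMIs, while the Veh cells of the same low share held 26.0, 31.9 and 23.8 against 26.6, 34.0 and 25.8. Proliferation UMIs were also lower in these DHA cells, at 9.22, 8.96 and 3.82 per cell against 22.6, 21.4 and 11.9. In Veh they were at 24.1, 22.1 and 7.09 against 30.6, 30.6 and 7.02, so lower at 0 and 1 h and not at 4 h. The lowest ratio was that of Hmgcs1 at 1 h, 0.140 (0.118 to 0.165). This split was added after the data were seen.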
